A study of Caenorhabditis elegans with 12 samples.

Results

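The 10 genes described here belong to peroxisomal beta-oxidation, the pathway that *C. elegans* uses to shorten the side chains of ascarosides. The part of each oxidase in that shortening was not tested here. The 10 genes are the acyl-CoA oxidase genes *acox-1.1*, *acox-1.2*, *acox-1.3*, *acox-1.4*, *acox-1.5*, *acox-1.6* and *acox-3*, and the genes of the later steps, *maoc-1*, *dhs-28* and *daf-22*. They were chosen by symbol in the WBcel235 annotation, and all 10 are among the 46726 genes of the deposited table.

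RNA was sequenced from whole worms of wild type (WT, N2 Bristol) and of *alh-6(lax105)*, a mutant that affects a mitochondrial enzyme of proline catabolism. Both genotypes were grown as synchronized L1 larvae on NGM plates with concentrated OP50 bacteria, and were collected at the L4 stage after 48 hr or as day 3 adults after 120 hr. Each of the 4 groups (WT L4, *alh-6* L4, WT day 3 and *alh-6* day 3) had 3 libraries. No group carried a transgene or received another agent. The mutant was compared as a single strain, the lesion of the allele is not given in the sources used here, and animals were collected by hours after plating. The study describes its work as done in biological triplicate. The labels do not say which libraries came from separate cultures, so p-values measure the spread between these libraries, of which a part may be technical.

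The reads counted on genes ranged from 19248229 to 23575173 per library. Replicate libraries differed beyond counting noise, and each was used as a replicate. Expression was deposited as FPKM, that is, reads per length of gene and per total of gene reads in the library. *alh-6* RNA itself was at 68.4 to 70.5 FPKM in WT against 60.6 to 62.6 FPKM in the mutant at L4, and at 31.9 to 33.9 FPKM and 32.0 to 34.8 FPKM in day 3 adults. Because whole animals were extracted, fewer cells of a type and less RNA per cell cannot be told apart. Marker genes of intestine, body wall muscle and germline were detected in all 4 groups. Markers of early embryos were near 0 at L4, with all 7 at a mean under 0.5 FPKM.

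Ascarosides are small glycolipid signals built from the sugar ascarylose and a fatty acid side chain, and mixtures of them form the dauer pheromone that tells larvae how crowded a plate is. The side chain starts long and is shortened in the peroxisome by repeated rounds of beta-oxidation. In each round a FAD-dependent acyl-CoA oxidase introduces a double bond, the enoyl-CoA hydratase MAOC-1 adds water, the dehydrogenase DHS-28 oxidizes the hydroxyl group, and the thiolase DAF-22 cleaves off acetyl-CoA. The oxidases work as dimers, and the chain length that a dimer accepts decides which rounds it can run. Mutants of *daf-22* and *dhs-28* are known for lacking short-chain ascarosides and for large lipid droplets, and the pathway is active in intestine and epidermis among other tissues.

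The oxidase genes differ in their setting in the genome. *acox-1.1* (WBGene00008564, 12938555 to 12942227), *acox-1.2* (WBGene00008565, 12942280 to 12946588), *acox-1.3* (WBGene00008566, 12946932 to 12951099) and *acox-1.4* (WBGene00008567, 12951134 to 12954003) follow each other on the plus strand of chromosome I, with 52, 343 and 34 bases between neighbours and 0 other coding genes in between. The other 3 oxidase genes stand alone, *acox-1.5* (WBGene00008167) on chromosome III from 9586618 to 9592192, *acox-1.6* (WBGene00010336) on chromosome X from 15834072 to 15838546 and *acox-3* (WBGene00019060) on chromosome IV from 6245358 to 6248492, all on the minus strand. Of the genes of the later steps, *maoc-1* (WBGene00017123, 7196276 to 7197495, plus strand) and *daf-22* (WBGene00013284, 12423518 to 12425694, minus strand) are on chromosome II, and *dhs-28* (WBGene00000991, 6818438 to 6820080, plus strand) is on chromosome X. These positions are in WBcel235, the assembly that ce11 also names. Exons of *acox-1.4* and *dhs-28* share 35 and 76 bases with a gene on the opposite strand (*F08A8.8* and *gei-15*), and exons of *maoc-1* overlap *E04F6.6* in the same way. Whether the counting used strand, and how it treated reads that fit more than 1 oxidase gene, is not given in the sources used here, so small differences of these genes carry that uncertainty.

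Since FPKM are per length, levels can be compared between genes. The genes of the last steps were the most abundant. In WT at L4 *dhs-28* was at 187 ± 14.4 FPKM and *daf-22* at 103 ± 9.82 FPKM (SD, n = 3), against 37.02 ± 3.94 FPKM for *maoc-1*. The 7 oxidases together came to 161 ± 9.80 FPKM (SD, n = 3), from 6.79 ± 0.330 FPKM for *acox-1.3* to 46.95 ± 0.412 FPKM for *acox-1.5*. In WT day 3 adults *dhs-28* was still the highest of the 10, at 40.5 ± 1.92 FPKM, and *acox-1.3* the lowest, at 0.559 ± 0.0736 FPKM (SD, n = 3).

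**Figure D1:**
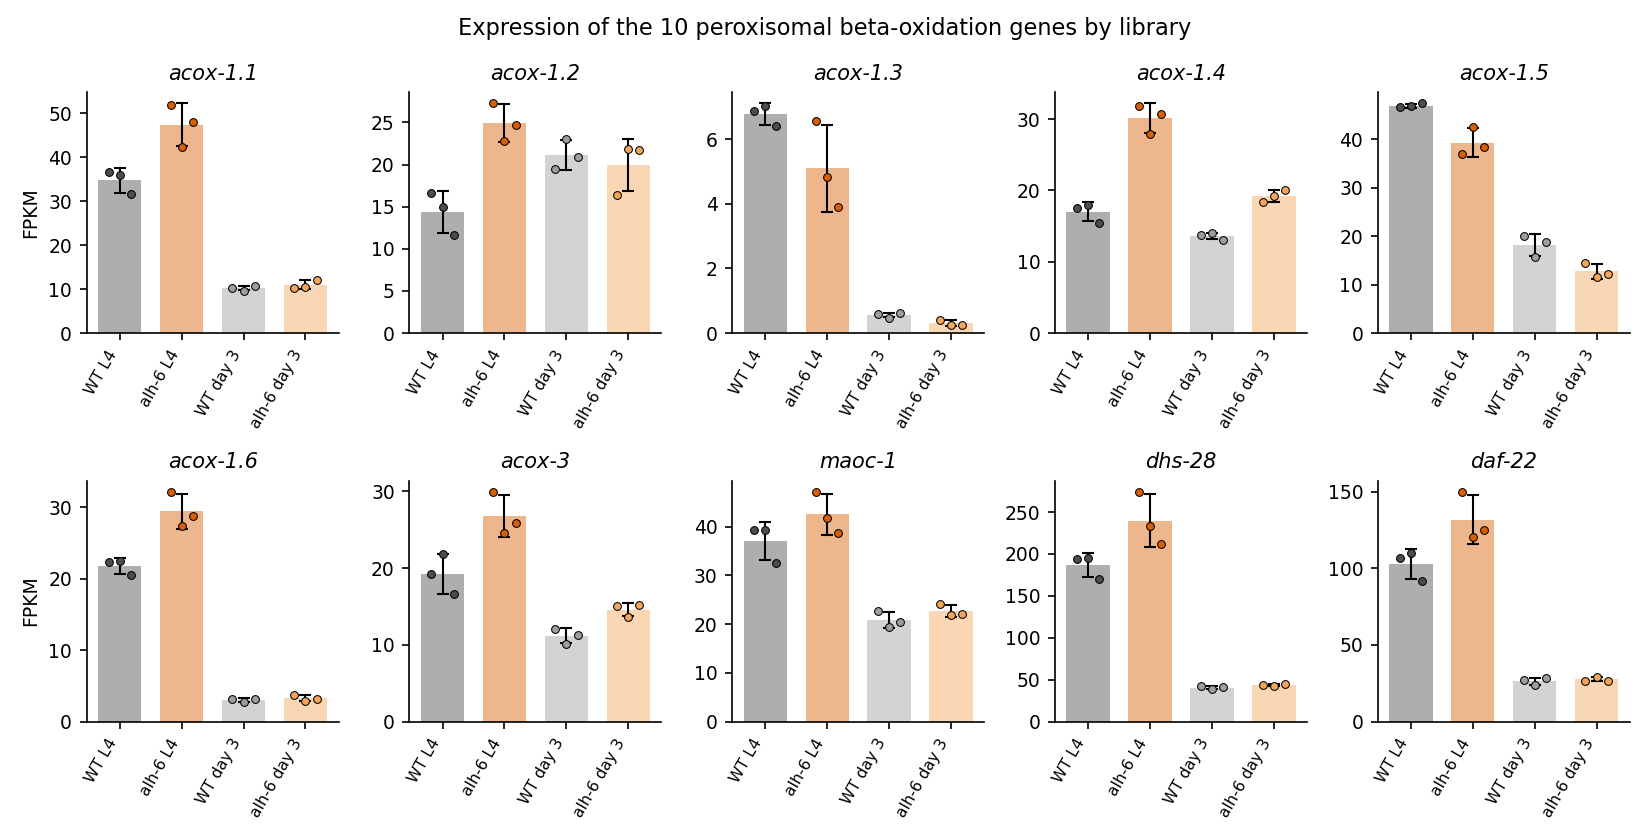
FPKM (y axis, from 0, a scale of its own for each gene) of the 10 genes in the 4 groups (x axis). Bars are means, error bars are SD over 3 libraries and points are the libraries; 6 of the genes have the order *alh-6* L4, WT L4, *alh-6* day 3, WT day 3 from high to low, and *acox-1.2*, *acox-1.3*, *acox-1.4* and *acox-1.5* do not.

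At L4 most of the pathway was more highly expressed in *alh-6* than in WT. Of the 10 genes, 7 were called higher (*acox-1.1*, *acox-1.2*, *acox-1.4*, *acox-1.6*, *acox-3*, *dhs-28* and *daf-22*), by 1.28-fold to 1.77-fold, and 1 was called lower (*acox-1.5*). A gene was called at an adjusted p under 0.05 (limma on log2(FPKM + 0.1), Benjamini-Hochberg over the 13851 genes tested). By that rule 8.19% of all genes tested were called higher and 7.15% lower. The median log2 fold change of the 10 genes was 0.39 and that of all genes tested was −0.03. The 2 genes not called were *maoc-1* and *acox-1.3*.

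*acox-1.4* had the largest log2 fold change of the 10 genes. It was at 17.5, 18.02 and 15.5 FPKM in WT replicates 1, 2 and 3 and at 31.9, 27.9 and 30.7 FPKM in the mutant at L4. All 3 mutant libraries were above all 3 WT libraries, and each mutant library held at least 1146 reads of the gene. The log2 fold change was 0.82 (standard error, SE, 0.090, limma adjusted p = 0.000631). Its neighbour *acox-1.2* moved by a similar amount, from 16.6, 14.96 and 11.7 FPKM in WT to 27.3, 22.8 and 24.7 FPKM in the mutant. These groups did not overlap either, and the log2 fold change was 0.80 (SE 0.13, limma adjusted p = 0.00491). In *C. elegans* ACOX-1.2 is known to act on ascarosides with short side chains.

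*acox-1.1* encodes the oxidase that takes part in most of the shortening, as a dimer with itself or with another oxidase. It was at 36.7, 36.05 and 31.6 FPKM in WT against 51.9, 42.4 and 48.2 FPKM in the mutant, again without overlap. The log2 fold change was 0.45 (SE 0.094, limma adjusted p = 0.0141). *acox-1.6*, on another chromosome, rose to nearly the same extent, from 22.3, 22.5 and 20.5 FPKM to 32.2, 27.4 and 28.8 FPKM (log2 fold change 0.43, SE 0.085, limma adjusted p = 0.0108). These 4 genes, *acox-1.1*, *acox-1.2*, *acox-1.4* and *acox-1.6*, stayed called in each of the 6 fits that left out 1 library.

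*acox-3*, an oxidase gene outside the *acox-1* series, was at 19.3, 21.9 and 16.6 FPKM in WT against 29.9, 24.6 and 25.9 FPKM in the mutant. The lowest mutant library was above the highest WT library. Its log2 fold change was 0.48 (SE 0.12, limma adjusted p = 0.0259). The call ended without WT replicate 1, without WT replicate 3 or without mutant replicate 1 (adjusted p of 0.0647 to 0.0802, log2 fold change 0.38 to 0.49).

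The dehydrogenase gene *dhs-28* was at 194, 196 and 170.1 FPKM in WT against 274, 233 and 212 FPKM in the mutant at L4. The thiolase gene *daf-22* was at 107, 109.9 and 91.6 FPKM in WT against 149.7, 120.3 and 125 FPKM in the mutant. For both genes the groups did not overlap, and mutant replicate 1 was the highest library. Both had a log2 fold change of 0.35, with a SE of 0.10 each and an adjusted p of 0.0456 for *dhs-28* and 0.0464 for *daf-22* (limma). These 2 calls lie close to the threshold. After the libraries were rescaled to a common median ratio *dhs-28* still passed (limma, adjusted p = 0.0456) and *daf-22* did not (0.0547). *dhs-28* was called in 1 of the 6 fits without 1 library (without mutant replicate 3) and lost in the other 5, with an adjusted p of 0.0669 to 0.129 and a log2 fold change of 0.25 to 0.39. *daf-22* was called without mutant replicate 2 and lost in the other 5 fits, with an adjusted p of 0.0563 to 0.130 and a log2 fold change of 0.26 to 0.40.

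The hydratase gene *maoc-1*, between the oxidases and *dhs-28* in the pathway, was at 39.31, 39.29 and 32.5 FPKM in WT against 47.1, 41.8 and 38.7 FPKM in the mutant. Mutant replicate 3 lay inside the WT range, and the log2 fold change of 0.20 (SE 0.10) did not pass (limma, adjusted p = 0.214).

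In contrast to the other oxidases, *acox-1.5* and *acox-1.3* had lower means in the mutant. *acox-1.5*, the most abundant oxidase gene in WT, was at 46.6, 46.9 and 47.4 FPKM in WT against 36.9, 42.6 and 38.5 FPKM in the mutant, with no overlap. The log2 fold change was −0.26 (SE 0.072, limma adjusted p = 0.0433). This call was kept only without mutant replicate 2, and the other 5 fits without 1 library gave an adjusted p of 0.0951 to 0.118 and a log2 fold change of −0.26 to −0.21. With no filter on low values, which raised the number of genes tested, *acox-1.5* (adjusted p = 0.0821), *acox-3* (0.0661), *dhs-28* (0.102) and *daf-22* (0.105) no longer passed at L4 (limma). In a fit of all 12 libraries *acox-1.5* did not pass at L4 either (limma, adjusted p = 0.106).

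*acox-1.3*, whose product is known to pair with ACOX-1.1, was at 6.89, 7.05 and 6.41 FPKM in WT against 6.57, 4.85 and 3.91 FPKM in the mutant. Mutant replicate 1 lay inside the WT range and the other 2 below it. The log2 fold change of −0.43 (SE 0.18) did not pass (limma, adjusted p = 0.146). Without mutant replicate 1 it passed, with a log2 fold change of −0.63 and an adjusted p of 0.0374. Between its neighbours *acox-1.2* and *acox-1.4*, both called higher, *acox-1.3* was thus the gene of the tandem cluster with no call at L4.

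Markers of other tissues also moved at L4. Of 7 oocyte and eggshell markers all were called lower in the mutant (log2 fold change −0.65 to −0.39), with summed levels of 760 to 839 FPKM in WT against 524 to 573 FPKM in the mutant. Among 7 epidermis markers the cuticle collagen genes *dpy-7* (1.84), *rol-6* (1.35) and *dpy-13* (0.92) were called higher and the collagen genes *col-19* (−0.58) and *col-7* (−0.87) lower. Of 6 germline markers 2 were called lower (median −0.18), and of 6 sperm markers 2 (median −0.14). The sperm markers summed to 365 to 404 FPKM in WT against 282 to 330 FPKM in the mutant. No body wall muscle or neuron marker was called by limma. Of 7 intestine markers 1 was called, *ges-1*, an intestinal esterase gene (log2 fold change 0.32), while 3 had an unadjusted p under 0.05 and limma-voom called 2 higher, *ges-1* and the peptide transporter gene *pept-1* (0.32, limma adjusted p = 0.0519). The median of the 7 was 0.17, with values from −0.05 to 0.32, and the summed level was 1885 to 2275 FPKM in WT against 1903 to 2445 FPKM in the mutant. The part of these shifts in the values of the 10 genes was not tested.

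In day 3 adults 3 genes were called between the genotypes. *acox-1.4* and *acox-3* were called higher in the mutant and *acox-1.5* lower. Of all 10501 genes tested at this stage 2.14% were called higher and 4.18% lower. After the libraries were rescaled to a common median ratio, 341 genes were called higher and 181 lower, in place of 225 and 439. The excess of lower calls thus depended on the scaling. The 3 genes still passed, *acox-1.4* (0.57, limma adjusted p = 0.00397), *acox-3* (0.46, 0.0218) and *acox-1.5* (−0.43, 0.049). *acox-1.3* was under 1 FPKM in all 6 libraries and was not tested, so 9 of the 10 genes were. Their median log2 fold change was 0.11 and that of all genes tested was −0.08, or −0.003 after rescaling.

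*acox-1.4* was at 13.8, 14.02 and 13.1 FPKM in WT day 3 adults and at 18.4, 19.2 and 20.04 FPKM in the mutant. The groups were well apart, with a log2 fold change of 0.49 (SE 0.081, limma adjusted p = 0.00767). The call was kept in 5 of the 6 fits without 1 library, with a log2 fold change of 0.46 to 0.53, and without WT replicate 3 the adjusted p was 0.0518. *acox-3* was at 12.0, 10.1 and 11.3 FPKM in WT against 15.02, 13.6 and 15.2 FPKM in the mutant. The groups did not overlap and the log2 fold change was 0.38 (SE 0.098, limma adjusted p = 0.0440). This call was lost whichever library was left out (WT or mutant, replicate 1, 2 or 3), with an adjusted p of 0.0525 to 0.155 and a log2 fold change of 0.32 to 0.44. It was also lost in a fit of all 12 libraries (limma, adjusted p = 0.0754) and with a replicate block (0.059).

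*acox-1.5* was at 19.99, 15.7 and 18.8 FPKM in WT against 14.5, 11.6 and 12.2 FPKM in the mutant. The highest mutant library was below the lowest WT library, and the log2 fold change was −0.51 (SE 0.12, limma adjusted p = 0.0299). The call was lost without WT replicate 1, without WT replicate 3 and without mutant replicate 2 (adjusted p of 0.0987 to 0.153, log2 fold change −0.48 to −0.44). With no filter on low values *acox-1.5* (adjusted p = 0.10) and *acox-3* (0.118) did not pass (limma).

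The other 6 genes tested gave log2 fold changes from −0.09 (*acox-1.2*) to 0.12 (*dhs-28* and *maoc-1*), none of which passed (limma, adjusted p of 0.276 to 0.736). *acox-1.1* was at 10.2, 9.66 and 10.6 FPKM in WT against 10.4, 10.6 and 12.2 FPKM in the mutant, so its groups overlapped. *daf-22* was at 27.1, 23.8 and 28.2 FPKM in WT against 26.7, 29.0 and 26.6 FPKM in the mutant. *dhs-28* was at 42.2, 38.4 and 40.8 FPKM in WT against 43.9, 42.7 and 45.2 FPKM in the mutant, where the groups did not overlap but the difference of 0.12 (SE 0.066) did not pass (limma, adjusted p = 0.276). *acox-1.3* was at 0.585, 0.476 and 0.616 FPKM in WT against 0.415, 0.263 and 0.236 FPKM in the mutant, which is 21 to 29 reads and 10 to 17 reads per library. The groups of *acox-1.3* did not overlap. Fitted without a filter on low values its log2 fold change was −0.72 (SE 0.32, limma adjusted p = 0.310). A fit of all 12 libraries gave the same value with a SE of 0.23 (limma adjusted p = 0.0954), so it passed in neither.

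At this stage 4 of the 4 body wall muscle markers tested were called higher in the mutant (log2 fold change 0.66 to 1.28), with summed levels of 124 to 160 FPKM in WT (159.5 in the highest library) against 256 to 287 FPKM in the mutant. For the 7 intestine markers limma called 0 (2 had an unadjusted p under 0.05 and limma-voom called 2), and their sum was 184 to 192 FPKM in WT (183.5 in the lowest library) and 182 to 195 FPKM in the mutant. Of the 3 early embryo markers tested, *tbx-37* (−0.94) and *tbx-38* (−0.80) were called lower in the mutant, all 3 had an unadjusted p under 0.05 and limma-voom called all 3 lower. The sum of all 7 such markers was 14.9 to 17.9 FPKM in WT against 8.93 to 10.3 FPKM in the mutant. The part of the muscle and embryo shifts in the values of *acox-1.4*, *acox-3* and *acox-1.5* was not tested.

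**Figure D2:**
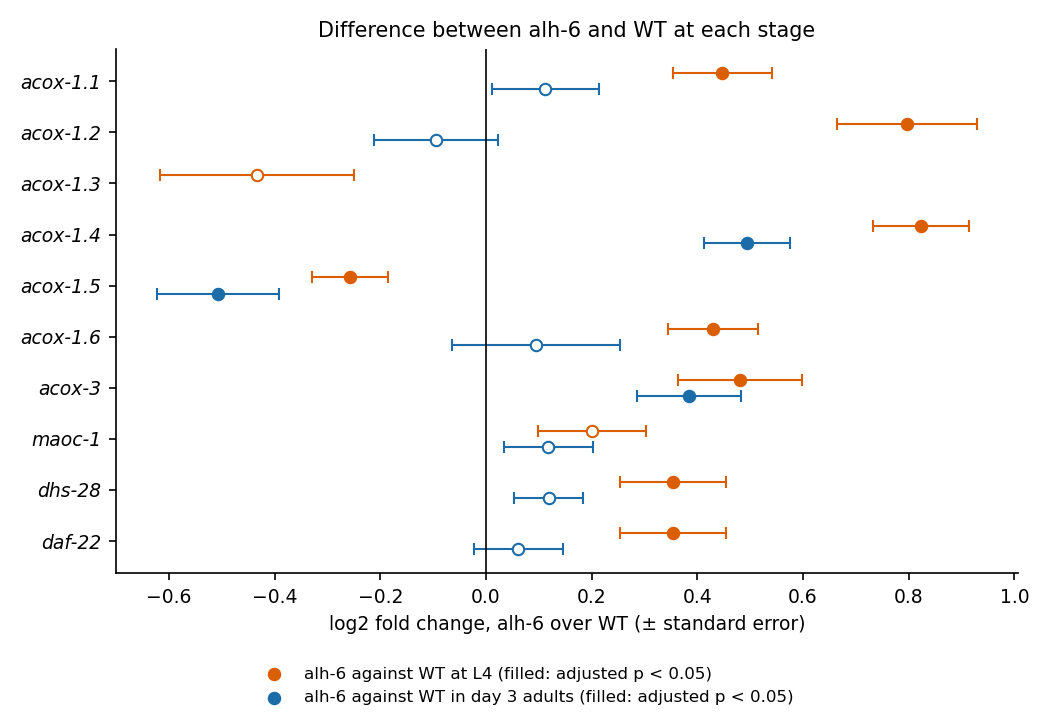
Difference between *alh-6* and WT (x axis, log2 fold change, ± SE from limma) for each gene at L4 (orange) and in day 3 adults (blue). Filled points passed an adjusted p of 0.05; *acox-1.4* (0.82 and 0.49), *acox-3* (0.48 and 0.38) and *acox-1.5* (−0.26 and −0.51) are filled at both stages, and *acox-1.3* has no point in day 3 adults.

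Whether the effect of *alh-6* differed between the stages was tested with an interaction of genotype and stage fitted to all 12 libraries. *acox-1.2* was the gene that passed, with a difference of −0.89 between the log2 fold change in day 3 adults and that at L4 (SE 0.20, limma adjusted p = 0.0179). Over all 14497 genes tested 4.01% were called with a lower effect in day 3 adults and 3.37% with a higher one, and 0 of the 10 genes were in the second class. After rescaling by the median ratio 453 genes had a lower effect and 774 a higher one, in place of 582 and 488. *acox-1.2* still passed after rescaling (−0.81, limma adjusted p = 0.0305). The term for *acox-1.2* was called in each of the 12 fits without 1 library (−0.9998 to −0.75). In that gene the range of each group overlapped that of its neighbour in rank, and WT L4 animals had the lowest mean. WT day 3 adults were at 19.5, 23.1 and 20.9 FPKM and mutant day 3 adults at 16.3, 21.8 and 21.7 FPKM, while mutant L4 animals were at 22.8 to 27.3 FPKM and WT L4 animals at 11.7 to 16.6 FPKM.

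For the other 9 genes the term was between −0.34 and −0.08 and did not pass (limma, adjusted p of 0.103 to 0.784). For these genes a call at 1 stage and none at the other is therefore not shown to be a difference between stages. That holds for *acox-1.1* (−0.33, SE 0.14), *acox-1.6* (−0.34, SE 0.16), *dhs-28* (−0.24, SE 0.12) and *daf-22* (−0.29, SE 0.14). The median of the term was −0.29 over the 10 genes and −0.03 over all genes tested, the latter 0.05 after rescaling.

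Between L4 and day 3 of adulthood expression of most of the pathway fell. In WT 9 of the 10 genes were called lower in day 3 adults than at L4 and 1, *acox-1.2*, higher. In the mutant all 10 were called lower. Shifts between these stages were common, since 51.8% of genes tested were called lower and 37.2% higher in WT, and 53.2% lower and 36.4% higher in the mutant. Over all genes tested the median log2 fold change was −0.52 in WT and −0.61 in the mutant, and rescaling the libraries to a common median ratio moved these by 0.16 and 0.24. The median over the 10 genes was −1.57 in WT and −1.86 in the mutant. The comparisons in the 2 genotypes share a fit and its estimate of the spread, and each uses libraries that the comparisons between genotypes also use.

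The falls were of unequal size. *acox-1.3* had a log2 fold change of −3.39 in WT and −3.68 in the mutant (SE 0.23 each), to 0.559 ± 0.0736 and 0.304 ± 0.0964 FPKM (SD, n = 3). For *acox-1.6* these were −2.81 and −3.15 (SE 0.11), from 20.5 to 22.5 FPKM in WT L4 libraries to 2.74 to 3.16 FPKM in WT day 3 libraries. These 2 oxidase genes had the largest declines of the 10 in either genotype, with adjusted p of at most 7.69e-09 (limma).

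*dhs-28* changed by −2.201 in WT and −2.44 in the mutant on the log2 scale (SE 0.086), *daf-22* by −1.96 and −2.25 (SE 0.096) and *acox-1.1* by −1.76 and −2.096 (SE 0.096). In these genes every day 3 library was below every L4 library. The change of *acox-1.5* was −1.37 and −1.62 (SE 0.10). Smaller falls were those of *maoc-1*, with −0.82 and −0.90 (SE 0.096), and of *acox-3*, with −0.77 and −0.87 (SE 0.11). The values of the hydratase gene *maoc-1* were thus nearer to 0 than those of *dhs-28* and *daf-22*, the genes of the steps after it, a difference between genes that was not tested.

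*acox-1.4* and *acox-1.2* were the genes closest to their L4 level. The log2 fold change of *acox-1.4* was −0.32 in WT (SE 0.081, limma adjusted p = 0.00238), nearer to 0 than the median of all genes tested, and −0.65 in the mutant (limma, adjusted p = 4.61e-06). After rescaling by the median ratio the value in WT was −0.16 and no longer passed (adjusted p = 0.107). *acox-1.2* rose by 0.56 in WT (SE 0.14, limma adjusted p = 0.00194), and rescaling gave 0.72. In the mutant its log2 fold change was −0.33 (SE 0.14, limma adjusted p = 0.0408). That fall was lost after rescaling (−0.08, adjusted p = 0.592), without L4 mutant replicate 1 or 3, without WT day 3 replicate 3 and without mutant day 3 replicate 1 (−0.33 to −0.19 over these 4 fits, adjusted p of 0.0516 to 0.198). It was also lost with no filter on low values (adjusted p = 0.0697) and with a replicate block (adjusted p = 0.0570).

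**Figure D3:**
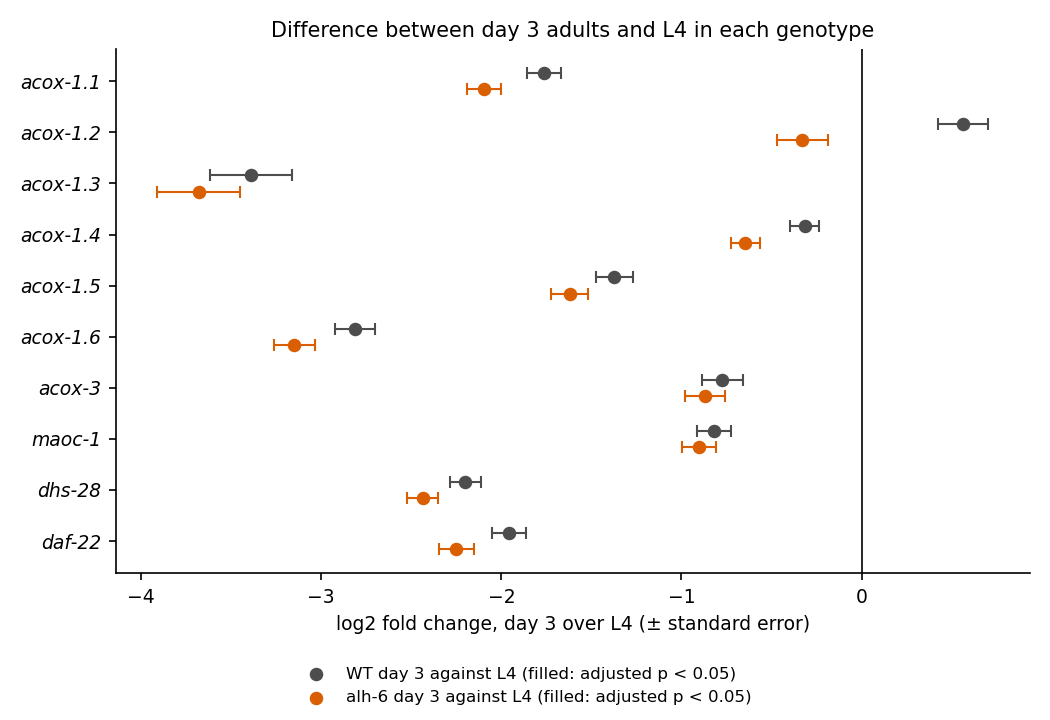
Log2 fold change of day 3 adults over L4 (x axis, ± SE from limma) for each gene in WT (grey) and in the *alh-6* mutant (orange), with filled points at an adjusted p under 0.05. All points lie below 0 except *acox-1.2* in WT (0.56), and *acox-1.3* (−3.39 and −3.68) and *acox-1.6* (−2.81 and −3.15) lie lowest.

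Intestine markers fell as well, all 7 in both genotypes, with a median log2 fold change of −2.46 in WT and −2.67 in the mutant. Their sum was 1885 to 2445 FPKM over the L4 libraries and 182 to 195 FPKM over the day 3 libraries. All 7 oocyte and eggshell markers rose in both genotypes (median 2.47 and 3.01), from a sum of 524 to 839 FPKM to 4309 to 4643 FPKM. In both genotypes 5 of 5 body wall muscle, 6 of 6 sperm and 6 of 7 epidermis markers were called lower. The other epidermis marker, *lin-26*, was called higher. The medians of these lists were −4.13, −6.39 and −3.955 in WT, and −3.185, −6.25 and −5.60 in the mutant. Of 6 germline markers 5 were called higher and 1 lower in each genotype. The part of this change in tissue markers in the decline of the 10 genes was not tested.

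Within the tandem cluster on chromosome I the 4 neighbours were thus not alike in these values. *acox-1.1* and *acox-1.3* fell steeply with stage, *acox-1.4* fell little and *acox-1.2* rose in WT. At L4, *acox-1.1*, *acox-1.2* and *acox-1.4* were higher in the mutant. The 4 group levels of *acox-1.4* were all separate from their neighbours in rank, in the order mutant L4, mutant day 3, WT L4 and WT day 3. The level of *acox-1.4* in mutant day 3 adults (18.4 to 20.04 FPKM) was above that in WT L4 animals (15.5 to 18.02 FPKM). For *acox-1.2* each group overlapped its neighbour in rank.

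The 6 genes *acox-1.1*, *acox-1.6*, *acox-3*, *maoc-1*, *dhs-28* and *daf-22* shared the order mutant L4, WT L4, mutant day 3, WT day 3. Among them the day 3 groups overlapped in *acox-1.1*, *acox-1.6*, *maoc-1* and *daf-22*, and the L4 groups in *maoc-1*. *acox-1.3* and *acox-1.5* had the order WT L4, mutant L4, WT day 3, mutant day 3, with overlap between the L4 groups in *acox-1.3*.

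These unequal changes shifted the make-up of the oxidase transcripts, here the share of each gene in the summed FPKM of the 7 oxidases of a library. The sum rose from 149.6 to 167 FPKM in WT L4 libraries to 193 to 217 FPKM in mutant L4 libraries (192.5 in the lowest), a ratio of 1.26 between the geometric means, and was 75.8 to 79.2 FPKM in WT against 78.6 to 84.7 FPKM in the mutant in day 3 adults. *acox-1.5* held the largest share in WT at L4, 29.3 ± 2.09%, and held 19.5 ± 2.56% in the mutant (SD, n = 3). The largest mean share in the mutant at L4 was that of *acox-1.1*, with 23.3 ± 1.14% (SD, n = 3). In mutant L4 replicate 2 *acox-1.5* held 22.14% against 22.03% for *acox-1.1*. By mean share *acox-1.2* was the largest in both genotypes in day 3 adults, with 27.2 ± 2.97% in WT against 24.6 ± 3.37% in the mutant (SD, n = 3), against 8.92 ± 1.101% in WT at L4. It was not the largest in replicate 1 of either genotype, where *acox-1.5* held 25.2% against 24.6% in WT and *acox-1.4* held 23.4% against 20.8% in the mutant.

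*acox-1.4* held 10.6 ± 0.219% of the oxidase sum in WT and 14.8 ± 0.425% in the mutant at L4, and 17.5 ± 0.923% and 23.7 ± 0.357% in day 3 adults (SD, n = 3). At each stage the mutant libraries were above the WT libraries. The ratio of *acox-1.4* to *acox-1.5* FPKM, which does not depend on how a library is scaled, was 0.326 to 0.385 in WT and 0.654 to 0.864 in the mutant at L4. Day 3 adults had a ratio of 0.688 to 0.893 in WT and 1.27 to 1.66 in the mutant. The ratio of the genotypes' geometric means was 2.12 at L4 and 2.01 in day 3 adults. This pair was picked after its values were seen, so these ratios are a description with no test.

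**Figure D4:**
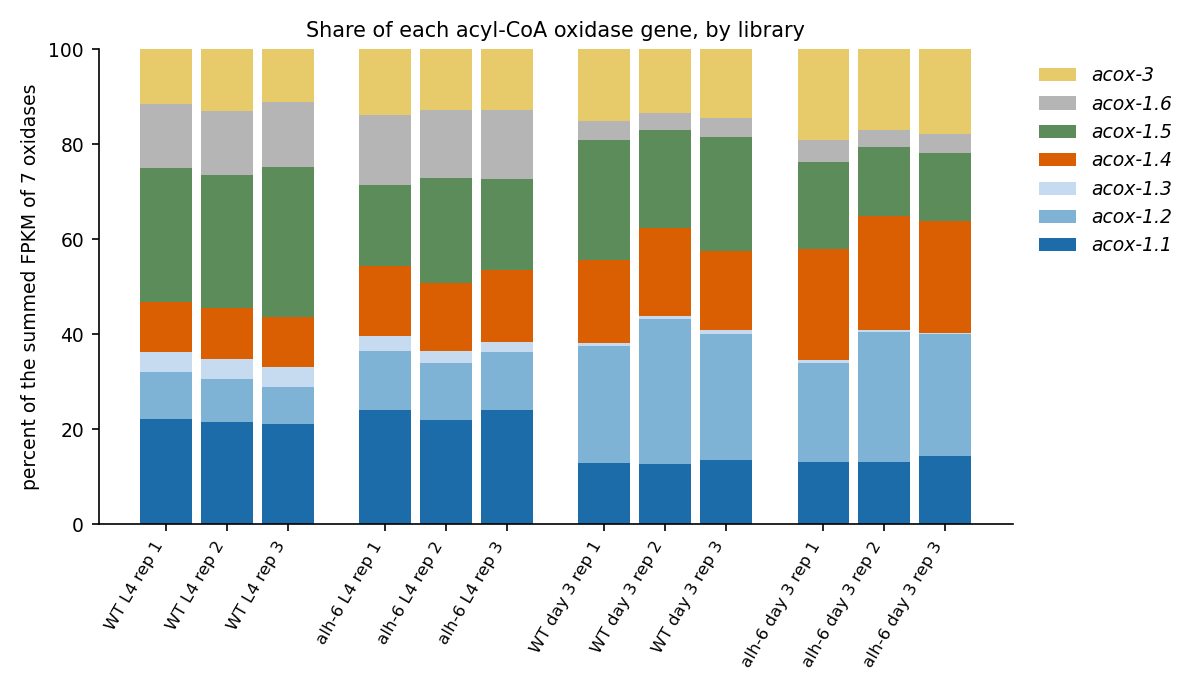
Share of each oxidase gene (colours) in the summed FPKM of the 7 oxidases (y axis, percent) in each of the 12 libraries (x axis). *acox-1.5* (green) holds 28.01 to 31.7% in WT at L4 and 17.0 to 22.1% in the mutant, *acox-1.4* (orange) is wider in the mutant at both stages, and *acox-1.2* (mid blue) widens to 20.8 to 30.5% in day 3 adults.

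Genes of the rest of the pathway were taken from 6 lists. Of all genes tested 8.19% were called higher and 7.15% lower at L4, and 2.14% and 4.18% in day 3 adults. For the attachment of head and tail groups to finished ascarosides, 4 of 11 genes tested were called higher in the mutant at L4 and none lower (median log2 fold change 0.26). They were *acs-7* (0.77, from 6.26 ± 1.51 to 10.6 ± 1.013 FPKM), an acyl-CoA synthetase gene needed for indole ascarosides, and the carboxylesterase family genes *cest-3* (0.62), *cest-9.2* (0.44) and *cest-2.1* (0.34). The lowest of the list was *cest-19* (0.02). Of 9 tested in day 3 adults limma called 0, 1 had an unadjusted p under 0.05 and limma-voom called 1 lower, *cest-2.2* (−0.62).

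Of the 5 peroxisomal ABC transporters, half-transporters that bring acyl-CoA and other substrates into the organelle, 2 were called higher at L4, *pmp-4* (0.46) and *pmp-2* (0.38), and the lowest was *pmp-3* (−0.10). In day 3 adults limma called 0 of the 5 and 1 had an unadjusted p under 0.05. At that stage limma-voom called 1 lower, *pmp-5* (−0.28, adjusted p = 0.0419). A further list held 9 other enzymes grouped as peroxisomal, and the location of each product was not tested here. Of these, *lonp-2*, a peroxisomal Lon protease (0.37), and *agxt-1*, an alanine-glyoxylate aminotransferase (0.33), were called higher at L4. *ctl-2*, the peroxisomal catalase that removes the hydrogen peroxide made by the oxidases, was called higher in day 3 adults (0.30, limma adjusted p = 0.0332). At L4 *ctl-2* had a log2 fold change of 0.36, just short of the threshold (limma, adjusted p = 0.0526). The lowest of the list at L4 was *idh-1*, an isocitrate dehydrogenase gene, at −0.36 (limma, adjusted p = 0.0565). By limma-voom, 6 of these 9 enzymes were called at L4, 5 of them higher and *idh-1* lower.

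The peroxins, which import proteins into peroxisomes and build them, gave no call between the genotypes. At L4 limma and limma-voom called 0 of 11 and 0 had an unadjusted p under 0.05, with log2 fold changes from −0.16 (*prx-10*) to 0.40 (*prx-2*). Both tools also called 0 of 10 in day 3 adults, where 4 had an unadjusted p under 0.05. For 6 regulators of fat metabolism, among them the nuclear receptor gene *nhr-49* and the Mediator subunit gene *mdt-15*, both tools called 0 at either stage and 0 had an unadjusted p under 0.05. *nhr-49* was at 37.2 ± 1.67 FPKM in WT against 37.2 ± 2.07 FPKM in the mutant at L4 (SD, n = 3). Of 8 ascaroside receptor genes, which act in sensory neurons, 6 had a mean under 0.5 FPKM in every group, and *daf-37* alone was tested at L4 (log2 fold change 0.13, limma adjusted p = 0.732).

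With stage, where 51.8% of all genes tested in WT and 53.2% in the mutant were called lower, 4 of these lists also had most members lower. In WT 11 of 12 attachment genes, 4 of 5 transporters, 8 of 9 other peroxisomal enzymes and 8 of 11 peroxins were called lower in day 3 adults than at L4. The exceptions were called higher, *cest-1.1* (1.09), *pmp-3* (0.72), *mlcd-1* (0.72), *prx-10* (0.41), *prx-19* (0.67) and *prx-14* (1.34). In the mutant the counts called lower were 11 of 12, 4 of 5, 7 of 9 and 8 of 11. Of the 6 fat metabolism regulators 3 were called lower and 3 higher in each genotype (median log2 fold change −0.16 in WT and −0.20 in the mutant), and the 1 receptor gene tested, *daf-37*, was called lower in both (−2.81 and −2.96). No list was tested against the other genes.

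**Figure D5:**
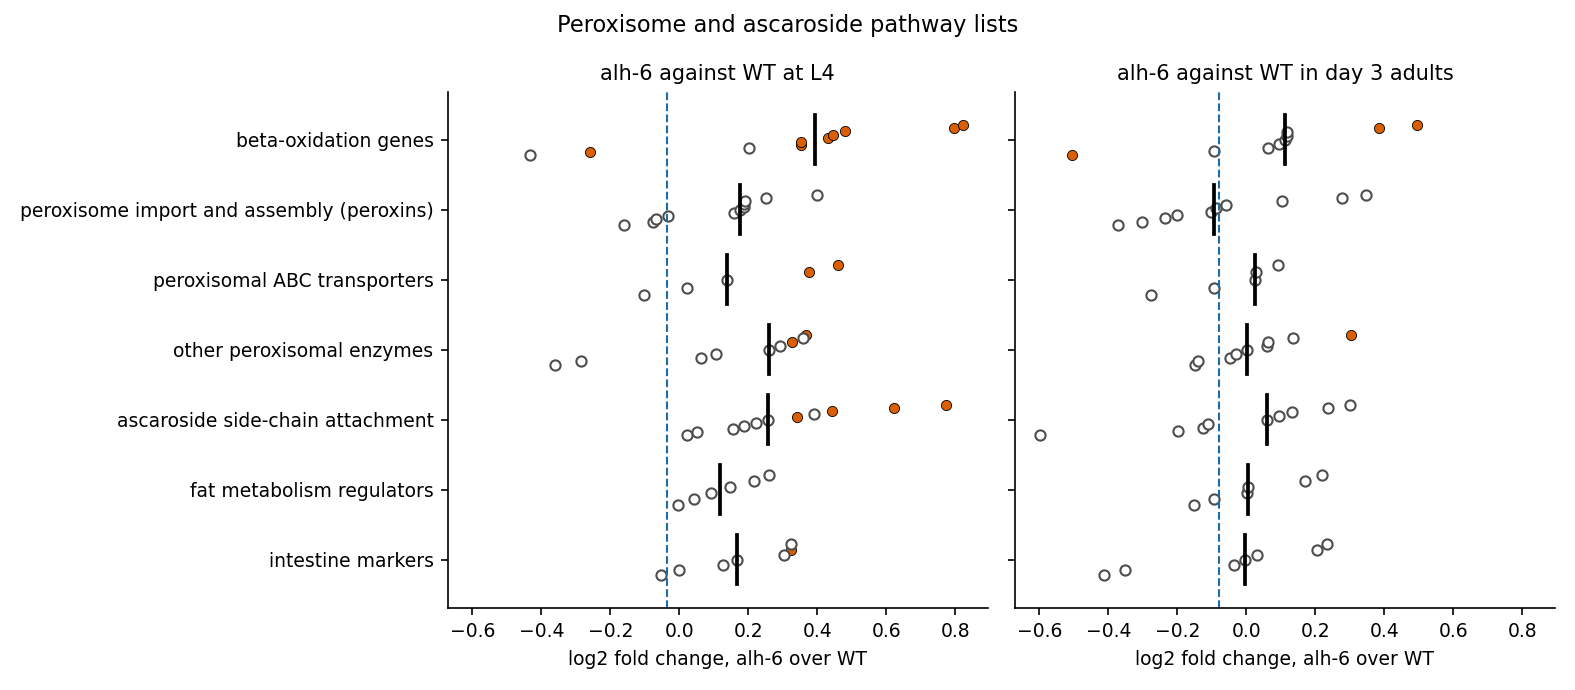
Differences between *alh-6* and WT (x axis, log2 fold change) at L4 and in day 3 adults for the 10 beta-oxidation genes, 5 related lists and the intestine markers (rows). Each point is a gene, filled where the adjusted p was under 0.05, black bars are list medians and the dashed line is the median of all genes tested (−0.03 and −0.08); the beta-oxidation genes have a median of 0.39 at L4 and 0.11 in day 3 adults.

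The genes with the profile most like a given gene over the 12 libraries were found by the root mean square distance between centred log2(FPKM + 0.1) values, over 14496 other genes. For *daf-22* these were *hum-8*, a myosin gene (0.075), *gst-27*, a glutathione S-transferase gene (0.0887), and *C01G10.9* (0.0923). *gst-27* was also near it in level, with means of 102 FPKM in WT against 123 FPKM in the mutant at L4 and 25.01 and 24.03 FPKM in day 3 adults. For *acox-1.4* the nearest was *F13D11.4* (0.0975), at 13.97, 23.3, 10.6 and 16.7 FPKM in WT L4, mutant L4, WT day 3 and mutant day 3. The next were farther away, the C-type lectin gene *clec-187* (0.172) and the cytochrome P450 gene *cyp-37A1* (0.177). For *acox-1.5* they were *W03D8.3* (0.0983), the kinesin-like gene *klp-3* (0.131) and *ctsa-4.1* (0.140). None of these is among the 10 genes, so no other gene of the pathway was as close to *daf-22*, *acox-1.4* or *acox-1.5* as these.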

How the data were processed

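The authors deposited FPKM per gene for each of the 12 libraries and, for each stage, a signal that is the mean normalized read count of a group, beside their own log2 fold change and p-value columns, which were not used. The submitters' processing notes name CASAVA 1.8, Bowtie2 2.2.3, TopHat2 2.0.12, HTSeq 0.6.1 and DESeq 1.18.0 and the build ce11, with no role or settings. Samples were grouped by their labels. Joining the FPKM with the deposited mean counts gave whole reads for 100% of values (within 0.01), with a median of 20632421 reads on genes. Symbols and positions came from WBcel235 release 115, which holds 46364 of the 46726 identifiers.

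log2(FPKM + 0.1) was fitted with limma 3.58.1 in R 4.3.3 (trend and robust variance), by stage for the genotypes and over 12 libraries for stage and interaction, keeping genes that reached 1 FPKM in 3 or more libraries. Fold changes on this scale understate low genes. A call meant an adjusted p under 0.05 (Benjamini-Hochberg, over all genes tested). The fits were tested on simulated data with changes of at least 2-fold. The genotype differences called among the 10 genes were smaller, so that test did not address differences of their size. Alternatives were pseudocounts of 1 and 0.01, no filter, rescaling by the median ratio, limma-voom on the recovered reads, a 2-fold threshold, other sets of libraries in the fit, a replicate block and each library left out. All 10 genes were named, and other genes only from the lists where called or as a list's extreme, with the 3 genes of nearest profile for *daf-22*, *acox-1.4* and *acox-1.5*. A few further genes (*ctl-2* at L4, *nhr-49*, *daf-37*) were given after their values were seen. The genes and lists were chosen with earlier results of these data known.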

Additional observations from a re-analysis of the deposited data

Results flagged for a closer look

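The effect of *alh-6* on *acox-1.2* differed between the stages by a test of the difference itself. Its log2 fold change in day 3 adults minus that at L4 was −0.89 (limma, adjusted p = 0.0179 over all genes tested). At L4 all 3 mutant libraries (22.8 to 27.3 FPKM) were above all 3 WT libraries (11.7 to 16.6 FPKM), and in day 3 adults the groups overlapped (16.3 to 21.8 against 19.5 to 23.1 FPKM). No group has more than 3 libraries, so single libraries were not tested as outliers.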

How the results depend on the processing

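The number of the 10 genes called between the genotypes depended on the stringency of the test. At L4 it was 8, fell to 4 with no filter on low values and to 0 with a fold change of at least 2, and ranged from 4 to 7 with 1 library left out. Of all genes tested, no filter called 810 higher and 583 lower of 22340, and the fold threshold 339 and 122 of 13851. The fits without 1 library called 1347 to 1750 genes. In day 3 adults it was 3, fell to 1 with no filter and to 0 with a fold change of at least 2, and ranged from 0 to 2 with 1 library left out, fits that called 147 to 1233 of all genes tested. No filter called 126 genes higher and 117 lower of 20436 at this stage, and the fold threshold 43 and 43 of 10501. For the stage comparisons a fold change of at least 2 left 6 genes in WT and 6 in the mutant, and for genotype by stage it left 0 in place of 1. Of all 14497 genes tested that threshold left 3151 higher and 6163 lower in WT, and 3230 and 6325 in the mutant. For genotype by stage it left 140 higher and 282 lower. With 1 library left out, the counts were 10 in WT, 9 to 10 in the mutant and 1 for genotype by stage. Those fits called 12587 to 12939, 12681 to 12933 and 695 to 1051 of all genes tested. Whether the replicate numbers pair the libraries was not settled. Correlations of deviations were −0.0691 to 0.139 between same-numbered libraries and −0.104 to 0.11 between libraries of different number. With the replicate block 8 genes were called at L4, 2 in day 3 adults, 10 and 9 with stage, and 1 for genotype by stage. Of all genes tested the block called 1215 higher and 1185 lower at L4, against 1134 and 990 without it. In day 3 adults these were 182 and 246, against 225 and 439. Directions turned only for differences that had no call. In day 3 adults these were *acox-1.2* without mutant replicate 1 (−0.165 to 0.042 over the libraries left out) and *daf-22* without WT replicate 2 (−0.011 to 0.111). For genotype by stage *acox-1.3* turned at a pseudocount of 1 (0.11, against −0.29 with a SE of 0.32 in the main fit). There *acox-3* (−0.192 to 0.0058) and *maoc-1* (−0.148 to 0.0090) turned without WT L4 replicate 3, and *maoc-1* after rescaling (0.0022). Of 333 single-gene results under alternatives other than a left-out library or the fold threshold, 317 kept direction and call and 14 lost the call. The cause of these changes was not tested. In day 3 adults *acox-1.3* rests on 10 to 29 reads per library.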
